A study of Mus musculus with 4 samples.

Results

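The cells described here are thymocytes with the transcripts of the CD4-CD8- double-negative (DN) stage. They were selected on UMIs (unique molecular identifiers, 1 per captured transcript) of 2 single-cell libraries. A barcode was taken as DN-like when *Il2ra*, *Hes1*, *Myl10* and *Dtx1* together had at least 3 UMIs, *Cd4* and *Foxp3* had 0 UMIs, and *Cd74*, *H2-Aa* and *Lyz2* together had at most 1 UMI. The rule took 191 of 10349 barcodes, 85 of 6014 in the WT library (1.41%, exact binomial 95% interval 1.13 to 1.74) and 106 of 4335 in the *Eif4g2* cKO library (2.45%, 2.01 to 2.95). The other 10158 barcodes served as the comparison.

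The WT library came from 1 mouse labelled as *Eif4g2* flox control, and the *Eif4g2* cKO library from 1 labelled *Cd4*-*Cre*; *Eif4g2* cKO. Both mice were aged 5 weeks and given as female. In the study cKO mice were *Cd4*-*Cre*; *Eif4g2* flox/flox, and controls carried either the flox/flox alleles or *Cd4*-*Cre*. Unsorted thymus cells were loaded into droplets of the DNBelab C4 system, which reads a tag near the 3′ end of each transcript. The *Cd4*-*Cre* transgene is known to act from about the onset of the CD4+CD8+ double-positive (DP) stage, which follows the DN stage. Each genotype had a single mouse, so that no comparison was tested and every interval covers counting error only.

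The library labelled WT went against its label in 1 respect. *Eif2s3y*, *Uty* and *Kdm5d*, which lie on the Y chromosome, had 2542 UMIs in the whole WT library and 1 UMI in the *Eif4g2* cKO library, although both mice are given as female. *Ddx3y*, also Y-linked, had 1427 and 510 UMIs. In DN-like cells the 3 genes had 42 UMIs in WT cells and 0 UMIs in *Eif4g2* cKO. Sex and genotype cannot be told apart in any comparison of the libraries. The files name barcodes by serial number, and 1055 names occur in both libraries, of which 0 were DN-like in both.

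DN-like cells were deeper than the rest. The WT cells had a median of 5425 UMIs and the *Eif4g2* cKO cells of 6142.5, against 1718 and 2071 in all other barcodes, and they held 651717 and 1011077 UMIs in all. The share of cells with over 10000 UMIs was 21.2% in WT (18 cells) and 34.9% in *Eif4g2* cKO (37 cells). The median mitochondrial share was 0.27% and 0.403%, against 0.611% and 0.631% in other barcodes. A rule that asks for a fixed number of UMIs favours deep barcodes, and levels are therefore given as CPM, the UMIs of a gene per 1000000 UMIs of the same cells.

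DN thymocytes enter from bone marrow progenitors, commit to the T lineage under Notch signals from the thymic epithelium, and rearrange the *Tcrb* locus while they carry CD25, the protein of *Il2ra*. A productive chain pairs with the pre-TCRα chain, encoded by *Ptcra*, and with CD3, and the signal of this pre-TCR ends the DN stage in a burst of growth and division called β-selection. Notch receptors are cut by ADAM proteases and γ-secretase upon ligand binding, and the freed domain enters the nucleus and joins the DNA-binding protein RBPJ and a Mastermind coactivator. *Hes1*, *Dtx1*, *Ptcra*, *Notch3* and *Myc* are known targets of this complex in thymocytes.

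The RBPJ core motif TGGGAA was looked for on both strands of the promoters of *Il2ra*, *Myl10*, *Dtx1*, *Ptcra*, *Notch3*, *Notch1*, *Nrarp* and *Hes5* (RefSeq, GRCm38.p6, 250 bases before to 50 after the start). *Hes1* and *Hey1* had no entry. Matches lay in 4 of 10 windows, of *Ptcra*, *Myl10* and *Hes5*, and 25.6% of all 32851 promoters hold the motif. Both matches of the pre-TCR gene, and 1 of the rule gene with the most UMIs, are shown, with the motif or its reverse complement TTCCCA in capitals.
*Ptcra*, chr17:46763781-46763806, minus strand, motif from base -84: cagaaagcacTGGGAActagggggta
*Ptcra*, chr17:46763729-46763754, minus strand, motif from base -32: gtctgtgatcTGGGAAgcagtgtagt
*Myl10*, chr5:136693066-136693091, plus strand, motif from base -70: agggtggttcTTCCCAcctcagttaa
Positions count from the annotated start. *Ptcra* has 2 forward copies within 100 bases of the start, and *Myl10*, which has 3 annotated starts, has a match in the windows of 2 of them, of which the one shown is a reverse copy. These are matches of letters only.

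The 4 genes that chose the cells contributed unequally. *Myl10* (chromosome 5, 136693146 to 136701094 of GRCm38, plus strand), a myosin light chain gene used as a DN marker, had 468 UMIs in WT cells and 583 in *Eif4g2* cKO DN-like cells, and had a UMI in 74 of 85 and 89 of 106 cells. *Il2ra* (chromosome 2, 11642807 to 11693193, plus strand) had 155 and 215 UMIs in 53 and 66 cells. *Hes1*, a repressor (chromosome 16, 30064384 to 30067796, plus strand), had 53 and 185 UMIs in 29 and 60 cells. *Dtx1*, a ubiquitin ligase that acts on Notch (chromosome 5, 120680202 to 120711927, minus strand), had 76 and 71 UMIs in 29 and 28 cells. The most frequent combination was *Il2ra* with *Myl10* in WT (23 cells) and *Il2ra*, *Hes1* and *Myl10* in *Eif4g2* cKO (27 cells), and 61 and 84 cells had at least 2 of the 4 genes.

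**Figure D1:**
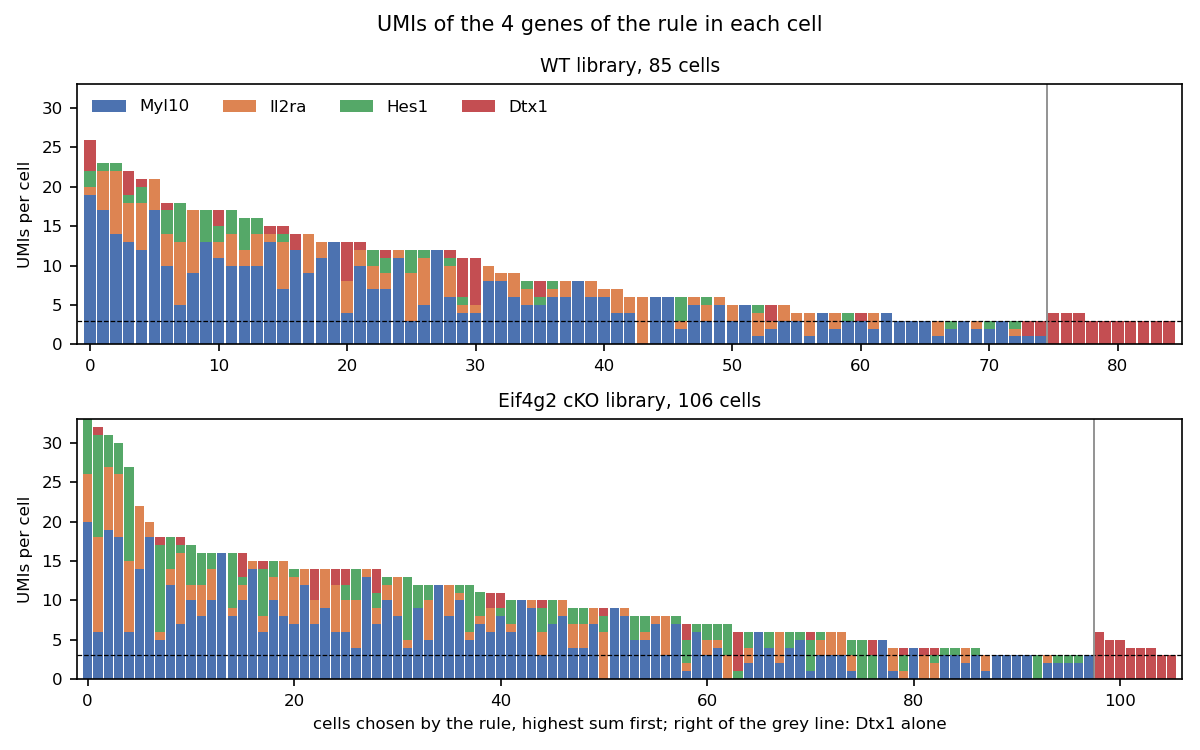
UMIs of *Myl10*, *Il2ra*, *Hes1* and *Dtx1* (y axis, stacked) in each DN-like cell (x axis, highest sum first), with the WT library above and the *Eif4g2* cKO library below. The dashed line marks the threshold of 3 UMIs, the sums reach 26 in WT and 33 in *Eif4g2* cKO, and the 10 and 8 cells to the right of the grey line have *Dtx1* alone.

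The median sum of the 4 genes was 6 UMIs in WT cells and 8.5 in *Eif4g2* cKO. The threshold cut through a continuum, with 19 and 13 cells at exactly 3 UMIs and 36 and 37 barcodes just outside at exactly 2. Across that edge *Ptcra* stood at 33.4 CPM in WT cells with 3 UMIs and 43.5 CPM in barcodes with 2, and at 64.7 and 58.3 CPM in *Eif4g2* cKO. *Cd8a* and *Cd8b1* together stood at 901 and 1055 CPM in WT, and at 794 and 628 CPM in *Eif4g2* cKO. Cells with 10 or more UMIs of the 4 genes (32 in WT, 47 in *Eif4g2* cKO) had 247 and 222 CPM of *Ptcra* and 159 and 197 CPM of *Cd8a* and *Cd8b1*. The demand for 0 *Cd4* UMIs left out 61 of 151 and 77 of 190 barcodes that had 3 UMIs of the 4 genes, and these still held 118 and 91.2 CPM of *Ptcra*. These values describe the rule and support nothing by themselves.

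Of the 6 markers of the DN stage listed for these cells, only *Ptcra* and *Notch3* took no part in the rule. *Ptcra* had 93 UMIs in WT (143 CPM, exact Poisson 95% interval 115 to 175) and 134 UMIs in *Eif4g2* cKO (133 CPM, 111 to 157), against 50.1 and 53.7 CPM in all other barcodes. *Notch3* had 146 UMIs in WT (224 CPM, 189 to 263) and 46 in *Eif4g2* cKO (45.5 CPM, 33.3 to 60.7), against 31.6 and 13.7 CPM. Both were higher in DN-like cells of each library. They were found in single cells as well, *Ptcra* with a UMI in 43 of 85 and 48 of 106 cells, and *Notch3* in 48 and 32 cells.

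The coreceptor *Cd8* was measured next. A UMI of *Cd8a* or *Cd8b1* was present in 53 WT and 73 *Eif4g2* cKO DN-like cells, at a median of 1.61 and 1.70 UMIs per 10000, whereas barcodes with UMIs of both *Cd4* and *Cd8* had medians of 39.9 and 45.4. Those barcodes were chosen for a *Cd8* UMI and the DN-like cells for 0 UMIs of *Cd4*, so that both choices widen the gap, which is given as a description. No DN-like cell, 0 of 85 and 0 of 106, reached the lower quartile of those barcodes (24.5 and 25.5), which allows shares of up to 3.53% and 2.83%, with 3 cells as the limit for a count of 0. After thinning to 1000 UMIs the share of DN-like cells with a *Cd8* UMI was 24.7% and 25.5%. Antigen-presenting barcodes (at least 10 UMIs of *Cd74*, *H2-Aa* and *Lyz2*), of which some kinds can express *Cd8a*, had 33.3% of 45 in WT. In *Eif4g2* cKO they had 28.6% of 7. The *Cd8* UMIs of DN-like cells were unevenly spread, at 1375 and 1165 CPM in the cells with *Dtx1* alone described next and 261 and 335 CPM in the others. The part of free RNA in them was not tested. *Cd3e*, a chain of CD3 that T lineage cells share, kept a UMI after thinning in 49.4% and 49.1% of DN-like cells and 59.2% and 64.6% of other barcodes. It did so in 22.2% of the WT antigen-presenting barcodes and 14.3% of the 7 of *Eif4g2* cKO. Unthinned, it had a UMI in 80 of 85 and 104 of 106 DN-like cells.

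A part of the cells went against the name. In 10 WT and 8 *Eif4g2* cKO cells *Dtx1* was the only one of the 4 genes with UMIs, and these cells had genes of mature single-positive (SP) thymocytes. *Ms4a4b* stood at 1285 CPM in these WT cells and 629.6 CPM in these *Eif4g2* cKO cells, against 35.9 and 40.8 CPM in the other DN-like cells. *Klf2*, which drives the exit genes of mature T cells, stood at 363 and 220.3 CPM against 15.4 and 12.3. *Ccr7*, a homing receptor of mature cells, stood at 242 and 94.4 CPM against 3.42 and 2.04. In these *Eif4g2* cKO cells the levels rest on few UMIs, 20 of *Ms4a4b* in 7 cells, 7 of *Klf2* in 3 and 3 of *Ccr7* in 2. *Dntt*, the terminal transferase of immature thymocytes, stood at 90.7 and 94.4 CPM (6 and 3 UMIs) against 919 and 954. *Notch3* had 0 UMIs in both groups of cells with *Dtx1* alone. The 8 *Eif4g2* cKO cells held 31768 UMIs in all, where 1 UMI equals 31.5 CPM. Their 0 can therefore not be told from the 47.0 CPM of *Notch3* in the other *Eif4g2* cKO DN-like cells. The mitosis list described below stood at 3325 CPM in the 10 WT cells and 189 CPM in the 8 *Eif4g2* cKO cells, against 1052 and 1818 CPM in the other DN-like cells. *Cd2*, which comes up after β-selection, had 35 of its 49 WT and 23 of its 68 *Eif4g2* cKO UMIs in these cells, and *Cd5*, a brake on receptor signals, 15 of 26 and 4 of 43.

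The 3 *Tyrobp*-rich *Eif4g2* cKO cells stood apart in another way. *Tyrobp*, a signalling adaptor of myeloid and natural killer cells, had 144 UMIs in *Eif4g2* cKO DN-like cells, of which 138 lay in 3 cells with 28, 55 and 55 UMIs, and 2 UMIs in WT. The same 3 cells held all 57 UMIs of *Ifitm1* and 70 of the 71 UMIs of *Hbb-bt*. They had 268 CPM of *Spi1* and 309.5 CPM of *Mef2c*, factors of progenitors and myeloid cells, against 3.12 and 4.16 CPM in the other *Eif4g2* cKO cells, and 124 CPM of *Cd3e* against 619. All 3 had *Il2ra* UMIs.

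Markers of other cell types differed by list, from innate lymphoid genes at 0 to γδ and innate genes above the other barcodes. The rule allowed at most 1 UMI of *Cd74*, *H2-Aa* and *Lyz2* together, which bears on the B cell, myeloid and dendritic genes. Their values are given as a description. Of 8 B cell genes, 5 were at 0 in WT and 6 in *Eif4g2* cKO, among them *Cd79a* and *Ms4a1*. *Cd79b* had 33 and 42 UMIs, with log2 ratios of 1.55 and 1.04 to other barcodes with at least 4000 UMIs. The B cell list summed to 64.4 and 46.5 CPM, against 67.2 and 42.7 CPM in all other barcodes. Of 9 stromal and epithelial genes 8 were at 0 in each library, and *Epcam*, an adhesion molecule, had 40 and 27 UMIs (61.4 and 26.7 CPM, against 7.51 and 9.68). Of 12 myeloid and dendritic genes, 7 and 4 were at 0. Their summed level was 24.6 and 173 CPM, against 223 and 73.6 CPM in all other barcodes. *Tyrobp* had the most UMIs of them in *Eif4g2* cKO and *H2-Ab1* in WT. Without the 3 *Tyrobp*-rich cells the *Eif4g2* cKO sum was 29.1 CPM. The 7 genes of innate lymphoid cells were at 0 in both libraries. Of 11 measured γδ and innate genes, with *Nkg7* and *Sox13* given below among them, 3 were at 0 in each library. They summed to 269 and 190 CPM, against 122 and 65.4 CPM in all other barcodes. The haemoglobin genes summed with the rest of their list to 192 CPM in WT cells and 77.1 CPM in *Eif4g2* cKO DN-like cells, far below the 14442 and 889 CPM of other barcodes, and in *Eif4g2* cKO 70 of these 78 UMIs were the *Hbb-bt* UMIs of the 3 cells. The part of other cell types in the results was not tested.

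Against all other barcodes, the DN-like cells had higher levels of *Notch1*, *Notch3*, *Ptcra* and *Myc*, of the cell cycle genes *Cdk6* and *Cdkn1a* and of *Plac8* and *Ifitm2*, and lower levels of *Cd8a*, *Cd8b1* and the chromatin organiser *Satb1*. Genes with at least 50 UMIs over the DN-like cells of both libraries were compared, without the 4 rule genes, and a gene was counted when it passed 1 on the log2 scale in the same direction in both libraries. Of 3865 genes, 80 (2.07%) were higher and 128 (3.31%) were lower. Over all genes the median log2 ratio stood at -0.12 for WT and -0.16 for *Eif4g2* cKO. With each library scaled to a median of 0 the shares were 2.74% higher and 2.38% lower. The median of a list below is read against these medians. Since DN-like cells were deep, they were also set against the other barcodes with at least 4000 UMIs (1059 and 1243 barcodes), where 1.79% of genes were higher and 1.63% lower, so that about as many genes were higher and fewer were lower.

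**Figure D2:**
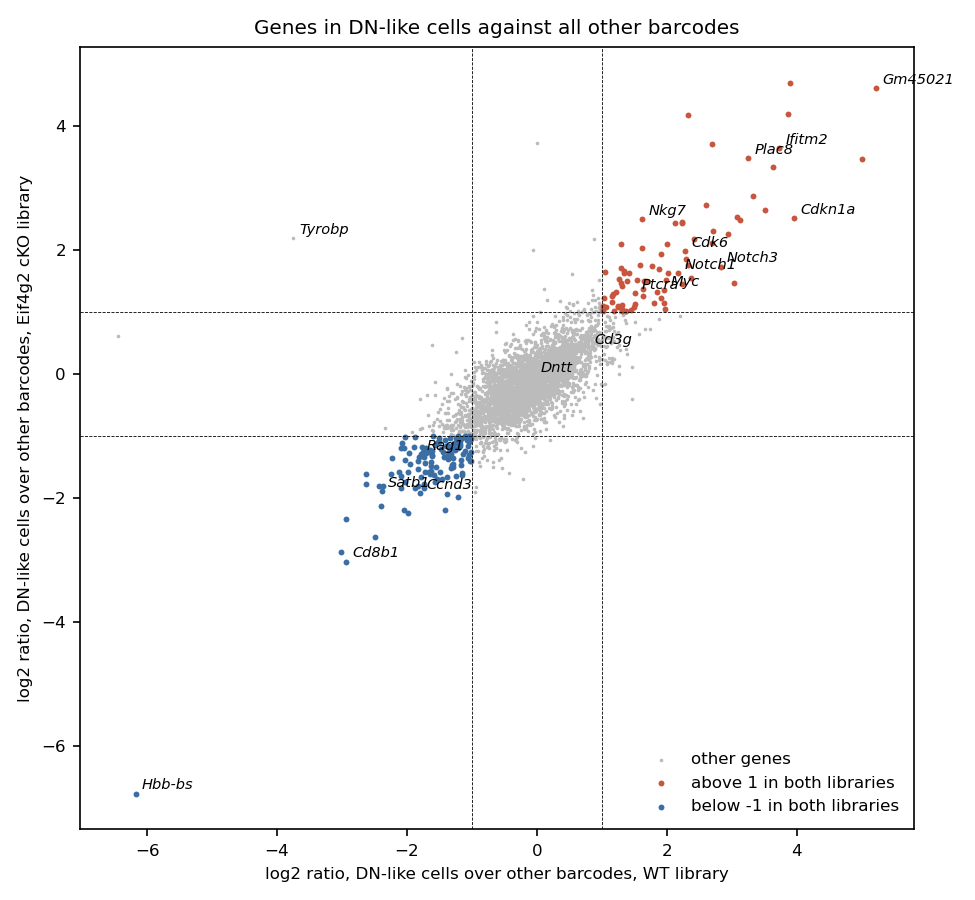
Log2 ratio of DN-like cells over all other barcodes in the WT library (x axis) and the *Eif4g2* cKO library (y axis), 1 point per gene with at least 50 UMIs. Red points (80 genes) pass 1 and blue points (128 genes) pass -1 in both libraries, with *Notch1*, *Notch3* and *Ptcra* among the former and *Cd8b1* and *Satb1* among the latter, and *Tyrobp* is the only gene past 1 in opposite directions.

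Among the receptors, *Notch1* had 197 UMIs in WT (302 CPM, 262 to 348) and 188 in *Eif4g2* cKO (186 CPM, 160.3 to 214), against 66.9 and 60.4 CPM in other barcodes, a log2 ratio of 2.18 and 1.62. *Notch3* had log2 ratios of 2.83 and 1.73. These were the 2 receptors with enough UMIs, and both passed 1 in both libraries. Against other barcodes with at least 4000 UMIs the ratios were 1.84 and 1.41 for *Notch1* and 2.97 and 1.57 for *Notch3*. With every barcode thinned to 1000 UMIs, *Notch1* kept a UMI in 29.4% (20.02 to 40.3) of WT and 30.2% (21.6 to 39.9) of *Eif4g2* cKO DN-like cells, against 4.74% and 4.52% of other barcodes. Unthinned, the shares were 72.9% and 69.8% against 12.5% and 15.3%. WT barcodes with at least 10 UMIs of *Cd74*, *H2-Aa* and *Lyz2*, antigen-presenting cells that gauge free RNA, had a median of 2298 UMIs. After thinning they had *Notch1* in 4.44% and *Ptcra* in 0 of 45. By the same limit of 3 cells, this 0 allows a share of up to 6.67%. The 7 such *Eif4g2* cKO barcodes had *Notch1* in 14.3% (0.361 to 57.9) and *Ptcra* in 0 of 7, which allows up to 42.9%. In DN-like cells *Ptcra* kept a UMI in 11.8% and 15.1%.

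Of 7 genes that cut Notch and 5 that act with it in the nucleus, 3 each had enough UMIs, and 0 of these passed 1 in both libraries. The processing genes' median log2 ratio was -0.27 in WT and -0.48 in *Eif4g2* cKO. *Psenen*, a subunit of γ-secretase, stood at 213 and 187 CPM against 257 and 326. *Rbpj* stood at 38.4 and 45.5 CPM against 36.5 and 29.2, and the coactivator *Maml2* at 79.8 and 8.90 CPM against 116 and 25.5 (log2 ratios -0.54 and -1.52, but 0.17 and -0.46 against the deeper barcodes). The fringe and other modifier genes and the inhibitors of the pathway had too few UMIs each. *Itch*, a ligase that removes Notch, had 23 and 11 UMIs.

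Of 10 Notch targets outside the rule 7 had enough UMIs, and 4 of these passed 1 in both libraries, *Notch1*, *Notch3*, *Ptcra* and *Myc*. *Ptcra* had log2 ratios of 1.51 and 1.30. *Myc*, a driver of cell growth at β-selection, stood at 118 and 81.1 CPM against 30.4 and 31.9 (log2 ratios 1.96 and 1.35). The other 3, *Tcf7*, *Bcl11b* and *Gata3*, had log2 ratios between -1.16 and 0.13. *Hes5* had 3 and 7 UMIs, and *Nrarp*, a feedback inhibitor, had 2 and 4, so that neither could be placed. The count of 4 was the same against other barcodes with at least 4000 UMIs, where *Ptcra* had 1.36 and 1.05 and *Myc* 1.41 and 1.06.

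Of 11 genes of the pre-TCR and its signalling chain 1, *Ptcra*, passed 1 upward, and 3 passed 1 downward, among them *Cd247* and *Zap70*, of which 0 did so against other barcodes with at least 4000 UMIs. *Cd3g* was higher in DN-like cells at 1659 and 1438 CPM against 962 and 1085, whereas *Cd3e* stood at 687 and 595 against 824 and 854. Against the deeper barcodes *Cd3g* had 1.06 and 0.68, and *Cd3e* 0.20 and -0.11. *Cd247*, the ζ chain, stood at 238 and 170.1 CPM against 674 and 349. Without the cells with *Dtx1* alone 5 genes passed 1 downward, with *Fyn* (-1.42 and -1.11) and *Lcp2* (-1.02 and -1.09) added, and again 0 against the deeper barcodes. *Zap70*, a kinase below the receptor, had log2 ratios of -1.23 and -1.07. The constant region genes of the receptor chains were not analysed here.

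Of the recombination genes, *Rag1*, a subunit of the recombinase, stood at 112 and 137 CPM against 388 and 337 (log2 ratios -1.79 and -1.29) and was the 1 gene of 5 past 1 downward, but against other barcodes with at least 4000 UMIs its ratios were -0.34 and -0.26. *Dntt* stood at 835 and 927 CPM against 858 and 953, a log2 ratio of -0.039 in each library. *Xrcc5*, a Ku subunit of end joining, had log2 ratios of 0.78 and 1.13.

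**Figure D3:**
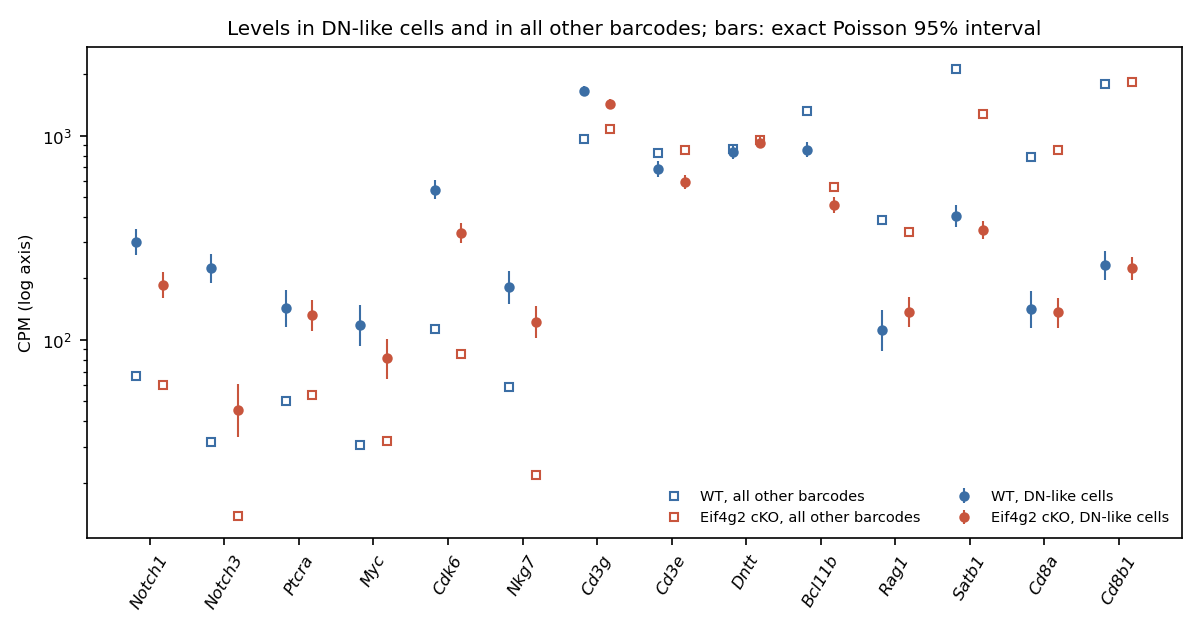
Level in CPM (log y axis) of 14 genes (x axis) in DN-like cells (filled points, bars give the exact Poisson 95% interval) and in all other barcodes (open squares), WT in blue and *Eif4g2* cKO in red. *Notch1*, *Notch3*, *Ptcra*, *Myc*, *Cdk6* and *Nkg7* lie above the other barcodes in both libraries, *Rag1*, *Satb1*, *Cd8a* and *Cd8b1* below, and *Dntt* lies level with them.

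Of 14 transcription factors of the T lineage 1 passed 1 upward and 2 downward. *Sox13*, a factor known from γδ T cells, stood at 44.5 and 26.7 CPM against 6.83 and 6.16. *Tox* and *Id3* were lower, with log2 ratios of -1.62 and -1.31 and of -1.71 and -1.28, and neither passed 1 in both libraries against other barcodes with at least 4000 UMIs (-0.55 and -0.035, -1.44 and -0.91). *Runx1* and *Tcf3* (E2A) differed by at most 0.37, and *Bcl11b*, the commitment factor, had -0.63 and -0.29, but -0.059 and 0.21 against the deeper barcodes. Progenitor genes had too few UMIs to be compared singly, and the 15 of them summed to 67.5 and 113 CPM against 26.7 and 19.4, of which *Erg*, active before commitment, had 21 and 25 UMIs. Without the 3 *Tyrobp*-rich cells the *Eif4g2* cKO sum was 61.3 CPM.

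Genes that come up after β-selection were lower than in all other barcodes, and for *Cd8a* and *Cd8b1* also than in deeper ones. All 7 with enough UMIs passed 1 downward in both libraries, with medians of -2.12 and -1.58. *Cd2* and *Cd28*, a ligand receptor and a costimulator, stood at 75.2 and 67.3 CPM against 326 and 202, and at 73.7 and 58.4 against 244 and 176. Without the cells with *Dtx1* alone *Cd2* stood at 23.9 and 45.95 CPM, and *Cd5* at 18.8 and 39.8. *Cd8b1* had log2 ratios of -2.94 and -3.03, and *Cd8a* -2.49 and -2.64. The demand for 0 *Cd4* UMIs bears on this list, since *Cd4* and *Cd8* come up together. Against other barcodes with at least 4000 UMIs 2 of the 7, *Cd8a* and *Cd8b1*, passed 1 in both libraries, and *Cd2* did so as well without the cells with *Dtx1* alone (-3.24 and -1.28, against -1.59 and -0.73 with them). With them the medians were -1.44 and -0.84.

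Of 5 DP genes 3 passed 1 downward, *Cd8a*, *Cd8b1* and the chemokine receptor *Ccr9* (106 and 86.05 CPM against 545 and 301), of which *Ccr9* had -0.84 and -0.41 against other barcodes with at least 4000 UMIs. *Arpp21* and *Aqp11*, DP genes of less known role, had log2 ratios of -0.83 and -0.89, and of -0.21 and -0.11, the latter 0.64 and 0.32 against the deeper barcodes. Of 4 genes of positive selection signals 3 passed 1 downward, *Itm2a*, *Cd5* and *Tox*, and against the deeper barcodes *Itm2a* alone. Of 6 genes of mature cells 1 passed 1 downward, *Gimap6* (log2 ratios -1.48 and -1.22, but -0.41 and 0.16 against the deeper barcodes). *Klf2* passed as well without the cells with *Dtx1* alone (-2.09 and -1.31, against -0.37 and -0.69 with them), but not against the deeper barcodes (-2.26 and -0.99).

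The 10 genes with the highest ratios, taken by the smaller of the ratios in the 2 libraries, were *Gm45021*, *Khdc1a*, *Cpa3*, *Ifitm2*, *Epb41l4b*, *Pld4*, *Plac8*, *C77080*, *Atp8b4* and *Tshz2*. *Gm45021*, a predicted gene, stood at 39.9 and 38.6 CPM against 1.07 and 1.58 (log2 ratios 5.22 and 4.61). *Plac8*, a gene of lymphoid and myeloid progenitors, had the most UMIs of the 10, at 694 (631 to 761) and 999 (938 to 1062) CPM against 72.7 and 89.4, with a UMI in 64 of 85 and 88 of 106 cells. *Ifitm2*, an interferon-inducible membrane protein, stood at 230.2 and 225 CPM against 17.4 and 18.1. *Cpa3*, a carboxypeptidase known from mast cells, had 22 and 80 UMIs in 7 and 17 cells. *C77080* had 64 and 143 UMIs in 5 and 16 cells, so that its level came from few cells.

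The 10 genes with the lowest ratios were *Hbb-bs*, *Cd8b1*, *Ptms*, *Cd8a*, *Chrna9*, *Ssbp2*, *Itm2a*, *Nsg2*, *Satb1* and *Themis*. *Satb1* stood at 405 (358 to 457) and 346 (311 to 384) CPM against 2115 and 1282. *Themis*, a regulator of receptor signals in DP cells, stood at 241 and 101 CPM against 1024 and 364. Against other barcodes with at least 4000 UMIs *Satb1* had -1.45 and -1.14, while *Themis* (-0.93 and -0.84) and *Chrna9* (-1.38 and -0.97) did not pass 1 in both libraries. *Hbb-bs*, a β-globin gene, had 52 and 3 UMIs, with log2 ratios of -6.18 and -6.78 to barcodes that include erythroid cells.

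Growth and division genes differed by group. Of 10 ribosome biogenesis genes 2 passed 1 upward, *Myc* and *Gnl3*, and 0 passed downward, with medians of 0.85 and 0.72. *Npm1* (nucleophosmin) stood at 1007 and 1678 CPM against 578 and 1009. Of 9 regulators of the G1 phase 2 were higher, the kinase *Cdk6* (545 and 334 CPM against 112 and 84.95) and the inhibitor *Cdkn1a* (73.7 and 36.6 against 4.74 and 6.39). Another 4 were lower, among them *Ccnd3*, the D cyclin of the DP transition (422 and 289.8 CPM against 1472 and 1107), and *Cdkn1b* (-1.72 and -1.45). Against the barcodes with at least 4000 UMIs *Gnl3* (0.69 and 1.18) and *Cdkn1b* (-0.91 and -0.81) did not pass 1 in both.

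Replication genes summed to 1887 and 1803 CPM in DN-like cells against 1565 and 2414 CPM in other barcodes, so that the median ratio of the 17 genes was 0.47 in WT and -0.38 in *Eif4g2* cKO. Genes of G2 and mitosis summed to 1283 and 1766 CPM against 2052 and 2731. Of these 17 and 13 genes 0 passed 1 in both libraries, and against other barcodes with at least 4000 UMIs the medians of the replication genes were -0.21 and -0.79, with the WT direction turned, and 0 genes were higher and 2 and 5 lower (4 mitotic genes without the cells with *Dtx1* alone). With barcodes thinned to 1000 UMIs, a UMI of the mitosis list was found in 29.4% (20.02 to 40.3) of WT and 37.7% (28.5 to 47.7) of *Eif4g2* cKO DN-like cells, and in 27.1% and 39.9% of other barcodes. Unthinned, the shares of DN-like cells were 61.2% and 72.6%. After thinning the 45 WT antigen-presenting barcodes had 17.8%, and the 7 of *Eif4g2* cKO had 42.9% (9.90 to 81.6).

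Few metabolic, survival and homing genes passed 1. Of 9 genes of glycolysis and nutrient uptake 1 passed 1 in both libraries, the amino acid transporter *Slc7a5* (log2 ratios 1.17 and 1.29), and *Gapdh* had 0.23 and -0.017. Against the barcodes with at least 4000 UMIs *Slc7a5* had 0.67 and 1.02, and *Gapdh* -0.12 and -0.21. Of 5 survival genes 0 passed, with *Bcl2* at 0.51 and 0.49 and *Mcl1* at -0.89 and -0.60, the latter at -0.13 and 0.12 against the deeper barcodes. Of 6 homing genes *Ccr9* passed 1 downward. *Cd24a*, the heat-stable antigen of immature thymocytes, had 0.71 and 0.61. *Nkg7*, a granule gene of cytotoxic and innate-like cells, was higher at 181 and 123 CPM against 58.7 and 21.8, and it was with *Sox13* the pair of γδ and innate genes with enough UMIs. Cells with *Dtx1* alone had 605 and 283 CPM of *Nkg7*, and the other DN-like cells 133 and 117, where the ratios to the deeper barcodes were 0.78 and 2.34. Of 5 stress genes *Jun*, an immediate early factor that handling of cells can raise, passed 1 (1.29 and 1.47).

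Of 4 cytokine receptor genes with enough UMIs, *Il7r*, *Il2rg*, *Ifngr1* and *Il21r*, only *Il21r* passed 1 in both libraries, downward (-1.18 and -1.14). *Il7r*, the receptor chain on which DN cells depend, had 21 and 39 UMIs, 32.2 CPM (19.9 to 49.3) in WT and 38.6 CPM (27.4 to 52.7) in *Eif4g2* cKO, against 33.6 and 9.68 CPM in other barcodes. *Il2rg*, the common γ chain, stood at 195 and 137 CPM against 378 and 240.2. Of 6 JAK-STAT genes *Socs1*, a feedback inhibitor, was the 1 past 1 downward, at 121 and 151 CPM against 287 and 310.3. Against the barcodes with at least 4000 UMIs neither *Il21r* (-0.55 and -0.66) nor *Socs1* (-0.34 and -0.42) passed 1. *Socs3* and *Cish*, other feedback inhibitors, had 18 and 15 UMIs, and 11 and 7 UMIs, too few to be counted.

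Among themselves, the DN-like cells varied with *Il2ra* and with depth. Outside the cells with *Dtx1* alone, 53 WT and 66 *Eif4g2* cKO cells had an *Il2ra* UMI and 22 and 32 had none. *Notch1* stood at 397 and 231 CPM in the former and 183 and 124 in the latter. *Ifitm2* stood at 317 and 298 CPM against 114 and 122. *Cd8a* and *Cd8b1* together ran the other way, at 178 and 203 CPM with *Il2ra* and 457 and 552 without. The mitosis list was higher without *Il2ra* in both libraries, at 1343 and 2224 CPM against 928 and 1571, as was depth, with medians of 6288 and 9301 UMIs against 5241 and 6106.5.

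Cells with over 10000 UMIs held most of the mitotic transcripts. The mitosis list stood at 2058 CPM in the 18 deep WT cells and 2566 CPM in the 37 deep *Eif4g2* cKO cells, against 509 and 283 CPM in the 67 and 69 others. The DN genes ran the other way. *Myl10* stood at 264 and 253 CPM in deep cells and 1171 and 1178 in the others, *Notch3* at 55.3 and 6.09 against 392 and 119, and *Ptcra* at 55.3 and 76.1 against 229.9 and 237. All other barcodes had 31.6 and 13.7 CPM of *Notch3* and 50.1 and 53.7 CPM of *Ptcra*. Deep *Eif4g2* cKO cells thus lay below them in *Notch3*, on 4 UMIs, and deep WT cells lay near them in *Ptcra*. Deep cells held 325554 of the 651717 UMIs of WT DN-like cells and 657129 of the 1011077 of *Eif4g2* cKO. A deep cell needs a lower level to reach 3 UMIs, which the rule itself fixes for *Myl10*. No doublet caller was run, and the part of barcodes that hold more than 1 cell was not tested.

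**Figure D4:**
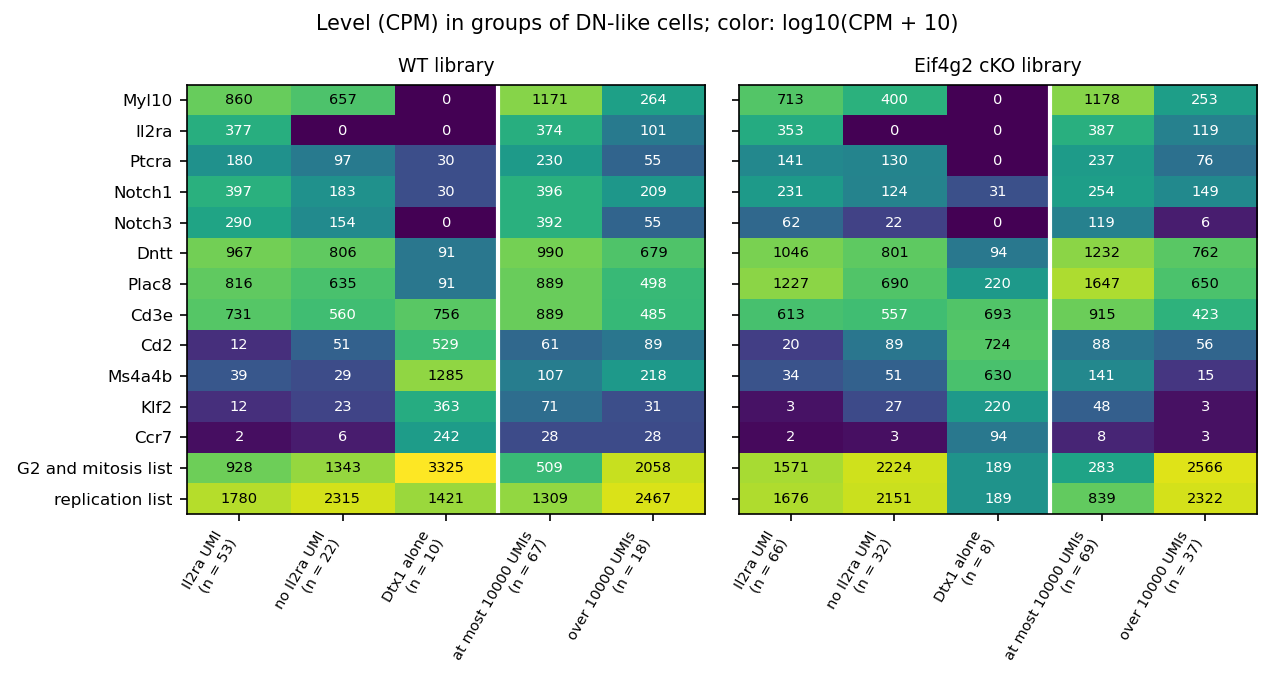
Level in CPM (printed in each field, color gives log10 of CPM plus 10) of 12 genes and 2 summed gene lists (y axis) in groups of DN-like cells (x axis) of the WT library (left) and the *Eif4g2* cKO library (right), where the first 3 columns and the last 2 each divide the cells anew. Cells with *Dtx1* alone have 0 UMIs of *Notch3* among 66164 and 31768 UMIs, and *Ms4a4b* at 1285 and 629.6 CPM. Cells over 10000 UMIs have the mitosis list at 2058 and 2566 CPM.

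Between the genotypes, *Eif4g2* cKO DN-like cells had lower *Notch3*, *Notch1* and long genes in general and higher *Npm1* than WT DN-like cells. The ratio in the other barcodes of the same libraries is given beside the values, since it holds what differed between the mice or the libraries in other cells as well. These barcodes mix cell types whose shares differ between the libraries, with 45 and 7 antigen-presenting barcodes and 5771 and 325 CPM of *Hbb-bs*. The study also reports fewer SP thymocytes in *Eif4g2* cKO mice. The part of cell composition in the ratio of the other barcodes was not tested. Of 3865 genes, 313 (8.1%) were higher and 941 (24.3%) lower by more than 0.5 on the log2 scale in *Eif4g2* cKO DN-like cells. The median log2 ratio was -0.11, and with this median set to 0 the shares were 12.2% higher and 19.9% lower. Ratios below are not shifted, so that a gene at -0.11 is level with the median.

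*Eif4g2* (chromosome 7, 111067750 to 111083030, minus strand), the gene deleted in *Eif4g2* cKO mice, had 92 UMIs in WT (141 CPM, 114 to 173) and 243 in *Eif4g2* cKO DN-like cells (240.3 CPM, 211 to 273), a log2 ratio of 0.77 (exact 95% interval 0.42 to 1.13). Other barcodes stood at 226 and 276 CPM (log2 ratio 0.29). Tags near the 3′ end need not lie in the deleted part, so the level checks neither the deletion nor the labels. The study's immunoblots found the eIF4G2 protein nearly gone from sorted DP and SP thymocytes, whereas DN cells did not show this depletion. *Eif4g2* cKO thus names the mouse here, and loss of the protein in the DN-like cells was not tested. Of 10 genes of the eIF4 group 2 were higher past 0.5, *Eif4g2* and the helicase *Eif4a2* (0.85), and 2 were lower, *Eif4g3* (-0.66) and *Eif4ebp2* (-0.57), with a median of -0.021.

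Of the genes of the rule, whose values describe the choice of cells, *Hes1* stood at 81.3 CPM in WT cells and 183 CPM in *Eif4g2* cKO (log2 ratio 1.17, 0.72 to 1.64), *Il2ra* had a ratio of -0.16, *Myl10* -0.32 and *Dtx1* -0.73. *Hes1* had a UMI in 34.1% of WT and 56.6% of *Eif4g2* cKO DN-like cells, and its ratio in other barcodes was 0.996. *Notch3* moved the other way, at 224 against 45.5 CPM, a log2 ratio of -2.30 (-2.81 to -1.81), with -1.20 in other barcodes. After thinning, *Notch3* had a UMI in 30.6% (21.05 to 41.5) of WT and 7.55% (3.31 to 14.3) of *Eif4g2* cKO DN-like cells, against 2.99% and 1.14% of other barcodes. Unthinned, it was found in 56.5% and 30.2% of DN-like cells. *Notch1* had a ratio of -0.70 (-0.997 to -0.41), with -0.15 in other barcodes. *Ptcra* had -0.11 (-0.50 to 0.29), an interval that holds 0.

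The lower *Notch3* level held in each choice of cells tried. The ratio was -1.73 without cells over 10000 UMIs, -2.27 in cells with a *Ptcra* UMI, -2.04 in cells with no *Cd8* UMI -2.41 without cells with *Dtx1* alone and -2.87 in the 33 and 29 cells with no UMI of the mitosis list. In the nuclear complex, *Maml2* had -3.16 (-4.37 to -2.13) and *Maml3* -1.42 (-2.25 to -0.63), with -2.18 and -1.55 in other barcodes, and *Rbpj* had 0.25 (-0.49 to 1.01). Of 7 Notch targets 0 were higher past 0.5 and 4 were lower, *Notch1*, *Notch3*, *Myc* (-0.54) and *Bcl11b* (-0.90).

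Gene length went with the ratio. By the span of the gene in GENCODE M21, the median ratio on the log2 scale stood at 0.077 for the 581 genes of up to 5 kb, -0.11 for the 971 genes of 20 to 50 kb, -0.42 for the 480 genes of 50 to 100 kb and -0.86 for the 381 genes over 100 kb. In other barcodes these medians were 0.19, -0.11, -0.51 and -0.98. *Maml2* spans 411 kb and *Maml3* 419 kb, while *Notch3* spans 46.0 kb and *Notch1* 58.8 kb. The part of span in the ratio of any gene was not tested.

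Ranked over genes that reached 100 UMIs in 1 library, the 10 lowest ratios were those of *Wwox*, *Notch3*, *Pitpnc1*, *Ripor2*, *Cd52*, *Prkca*, *Ppm1h*, *Pag1*, *Arhgap15* and *Aff3*. The 8 of them with a span had a median of 265 kb. *Wwox*, an oxidoreductase gene of 913 kb, had 374 UMIs in WT (574 CPM) and 100 in *Eif4g2* cKO (98.9 CPM), a ratio of -2.54 (-2.87 to -2.21), with -1.62 in other barcodes. *Prkca*, a protein kinase C, had -1.93 (-2.36 to -1.52). *Cd52*, a surface glycoprotein gene of mature lymphocytes, had 487 and 191 UMIs and a ratio of -1.98, which was -0.064 without the cells with *Dtx1* alone. *Ms4a4b* and *Klf2* likewise had -1.45 and -1.43 with these cells and 0.19 and -0.33 without them. *Cd2* had -0.16 with and 0.94 without them, and *Cd5* 0.092 and 1.08.

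The 10 highest ratios were those of *Tyrobp*, *Dusp2*, *Uqcrb*, *Rpl22l1*, *Alyref*, *H2afx*, *Ppp2ca*, *mt-Nd3*, *Polr2k* and *Rbis*, with a median span of 3.41 kb. *Rpl22l1*, a ribosomal protein paralogue, had 250 UMIs in WT (384 CPM) and 1011 in *Eif4g2* cKO (999.9 CPM), a ratio of 1.38 (1.18 to 1.59), with 1.76 in other barcodes. *Uqcrb*, a subunit of respiratory complex III, had 1.44 (1.13 to 1.75), with 1.55 in other barcodes. *Dusp2*, a phosphatase of MAP kinases, had 22 and 105 UMIs and a ratio of 1.62 (0.95 to 2.36), with 0.88 in other barcodes. The ratio of *Tyrobp* was 5.54 with the 3 *Tyrobp*-rich cells and 1.02 without them, on 2 and 6 UMIs.

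**Figure D5:**
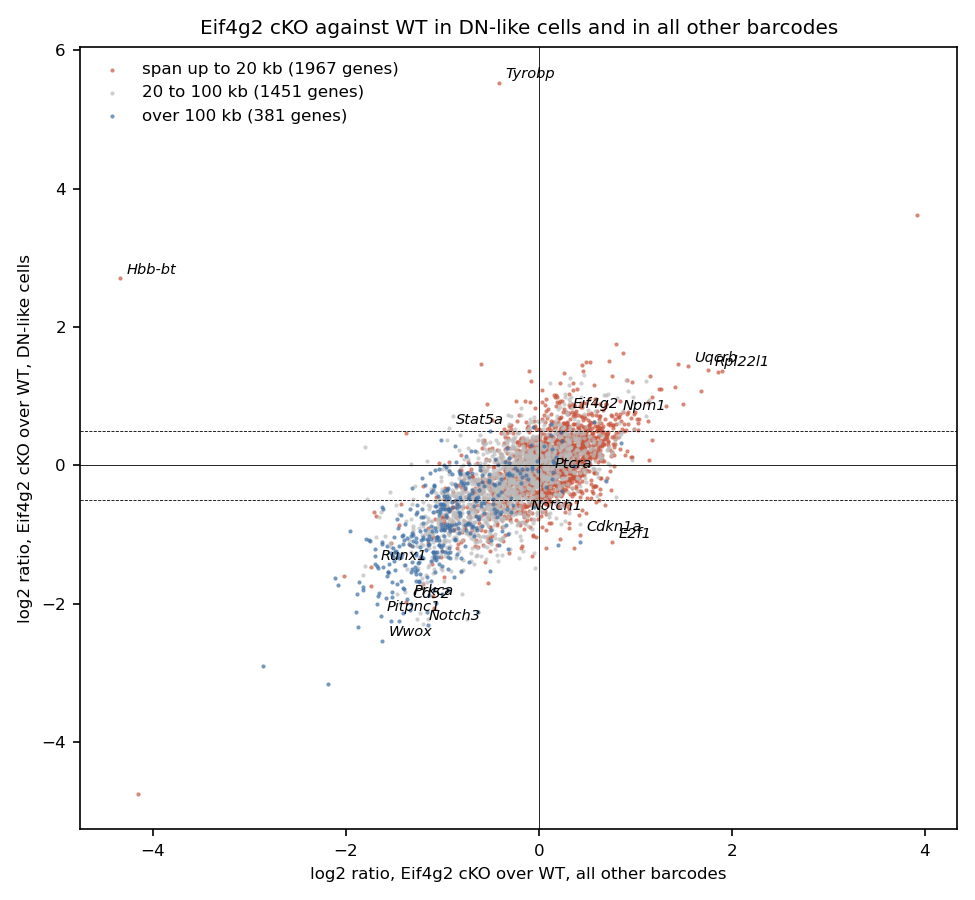
Log2 ratio of *Eif4g2* cKO to WT in all other barcodes (x axis) and in DN-like cells (y axis), 1 point per gene with at least 50 UMIs, colored by the span of the gene. Genes over 100 kb (blue, 381 genes) lie mostly below 0 on both axes, *Notch3* lies at -2.30 in DN-like cells and -1.20 in the others, and *Tyrobp* and *Hbb-bt* stand apart.

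By list, genes of G2 and mitosis were higher in *Eif4g2* cKO for 8 of 13 and lower for 0, with a median of 0.58 against 0.34 in other barcodes, read against 8.1% and 24.3% of all genes. *Ube2c*, a ubiquitin-conjugating enzyme of mitotic exit, had 0.89 (0.61 to 1.17) and the proliferation marker *Mki67* 0.83 (0.33 to 1.35). These ratios rested on deep cells, for without barcodes above 10000 UMIs *Ube2c* had -0.12 and *Mki67* -0.93. Without the cells with *Dtx1* alone they were 1.26 and 1.46, and the kinase *Aurka* had 2.16 against 1.16 with them. *Aurka* turned to -0.85 without barcodes above 10000 UMIs and to -0.89 under the thinned rule. Of 17 replication genes 0 were higher and 1, *Mcm3*, was lower (-0.65), with a median of -0.19 against 0.52 in other barcodes.

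Of 14 T lineage factors 0 were higher and 8 lower, with a median of -0.74 against -0.93 in other barcodes. *Runx1* had -1.43 (-1.74 to -1.13) and *Tcf12* (HEB) -1.14, and span 225 and 269 kb, whereas *Tcf7* had 0.34 and *Gata3* 0.077. Of 11 pre-TCR genes 4 were lower, among them *Fyn* (-1.24), *Lcp2* (-0.58) and *Zap70* (-0.56), and 0 higher. The interval of *Zap70* (-1.24 to 0.12) and that of *Lcp2* (-1.17 to 0.02) hold 0, *Zap70* turned to 0.36 with 5 UMIs of the rule genes, 0.29 with a *Ptcra* UMI and 0.24 with no mitosis UMI, and *Lcp2* to 0.26 in cells with no *Cd8* UMI. Of 10 growth genes 2 were higher, *Npm1* (0.74, with 0.80 in other barcodes) and *Nop2* (0.63, -0.15 to 1.46), and *Myc* was lower. *Nop2* turned to -0.54 in cells with no *Cd8* UMI and -1.08 in cells with no mitosis UMI. *Cdkn1a* had -1.01 (-1.67 to -0.36), with 0.43 in other barcodes.

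The series asks about the response to IL-7, and its genes are given last. *Il7r* had a ratio of 0.26 (-0.54 to 1.10) in DN-like cells and -1.80 in other barcodes, and the difference between these was not tested. *Il2rg* had -0.50 (-0.86 to -0.14) and *Ifngr1* -0.62 (-1.05 to -0.19). *Il2rg* turned to 0.71 in cells with no *Cd8* UMI, and *Ifngr1* to 0.0013 under the thinned rule, 0.046 without barcodes above 10000 UMIs and 0.046 in cells with no mitosis UMI. Of 6 JAK-STAT genes 1 was higher, *Stat5a* (0.54, -0.19 to 1.32, an interval that holds 0), and 3 were lower, *Stat3* (-1.17), *Stat5b* (-0.59) and the kinase *Pim1* (-0.66, but 0.12 in cells with no *Cd8* UMI). Of 5 survival genes *Bcl2* was lower (-1.30, with -1.27 in other barcodes) and *Bak1*, a death effector, higher (0.93, 0.15 to 1.76, but -0.32 under the thinned rule), and *Mcl1* had 0.098. Others past 0.5 included *Adam10* (-0.52), *Rag2* (0.62), *Eno1* (0.70), *Selplg* (-0.83), *Cd27* (-0.65), *Arpp21* (-1.45) and *Jun* (-1.16).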

How the data were processed

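The cells of both thymus libraries were read as UMI counts per gene and barcode. Per the labels and methods, the authors made the deposited counts with dnbc4tools (2.1.3 in the design text, 3.0 in the file header) on mm10, 1 cDNA library per mouse, and no barcode had under 1000 UMIs. The 35 gene lists, the rule and the thresholds were chosen with earlier results of these data known. UMIs were summed over cells of a library and given as CPM with exact Poisson intervals, ratios with exact conditional binomial intervals and shares with Clopper-Pearson intervals, all 95% and for counting error only (Python 3.11.15, scipy 1.17.1). Where 1 side had 0 UMIs the ratio is a bound at 3 UMIs. Genes were named by list (50 UMIs or more), and as the 10 highest and 10 lowest ratios, for *Eif4g2* cKO over WT among genes with 100 UMIs in 1 library. Genes were placed on GRCm38 by GENCODE M21, which holds 97.5% of the identifiers. No cell filter was added, doublets were not called, and the steps were tested on simulated data. Alternatives changed the rule, the cells, the scaling, the low-count filter and the comparison cells. Some genes of the lists are not reported here. The comparisons with barcodes of at least 4000 UMIs, without cells with *Dtx1* alone and without *Tyrobp*-rich cells were added after seeing the data.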

Additional observations from a re-analysis of the deposited data

Results flagged for a closer look

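A gene of the lists is given here where its *Eif4g2* cKO to WT ratio passed 0.5 upward in DN-like cells and downward in other barcodes, or the reverse. The difference was not tested for any of the 3. *E2f1*, a factor of S phase entry, had a log2 ratio of -1.11 in DN-like cells and 0.76 in all other barcodes. *Hbb-bt*, a β-globin gene, had 2.71 and -4.34, and -3.37 in DN-like cells without the 3 *Tyrobp*-rich cells. *Stat5a*, a mediator of IL-7 receptor signals, had 0.54 (-0.19 to 1.32) and -0.93.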

How the results depend on the processing

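The share of DN-like cells in WT and *Eif4g2* cKO was 2.01% and 3.30% with at least 2 UMIs of the 4 genes, 0.915% and 1.87% with at least 5, 0.964% and 1.61% with the rule at 2 UMIs on barcodes thinned to 1000 UMIs, 0.715% and 1.11% with a *Ptcra* UMI and 0.532% and 0.761% with no *Cd8* UMI, and without barcodes above 10000 UMIs it was 1.76% in *Eif4g2* cKO. It was higher in *Eif4g2* cKO in each of these choices. The share of genes higher and lower than in other barcodes was 3.82% and 1.89% under the thinned rule, 4.005% and 1.95% in cells with no *Cd8* UMI, 3.60% and 6.96% as a mean of per-cell CPM and 4.25% and 6.59% with no filter on low counts. Without barcodes above 10000 UMIs 4.19% were higher, and against barcodes with at least 4000 UMIs 1.63% were lower. The share of genes higher in *Eif4g2* cKO was 14.9% in cells with no *Cd8* UMI, 12.2% scaled to a median of 0, 13.3% with no filter and 15.97% in cells with no UMI of the mitosis list, and 15.8% were lower with at least 100 UMIs of a gene. Of 2770 values of 187 genes under alternatives 40 changed sign where the ratio had been past 0.5 in size. The rest stayed within the counting interval (2379) or moved beyond it (351), and 230 of the rest had the other sign from a ratio within 0.5. The 40 *Eif4g2* cKO to WT log2 ratios follow. With at least 5 UMIs of the 4 genes they were *Cd52* 0.85, *Klf2* 0.15, *Ms4a4b* 0.40, *Nkg7* 0.25, *Zap70* 0.36. With the rule at 2 UMIs on thinned barcodes they were *Aurka* -0.89, *Bak1* -0.32, *Cdk1* -1.07, *Ifngr1* 0.0013, *Itm2a* 0.18, *Khdc1a* -0.30, *Nkg7* 0.59. Without barcodes above 10000 UMIs they were *Aurka* -0.85, *Cdk1* -2.37, *Hbb-bt* -0.53, *Ifngr1* 0.046, *Mki67* -0.93, *Ms4a4b* 0.40, *Tpx2* -0.85, *Ube2c* -0.12. In cells with a *Ptcra* UMI they were *Plac8* -0.21, *Zap70* 0.29. In cells with no *Cd8* UMI they were *Alyref* -0.20, *C77080* -0.68, *Ccnb2* -0.083, *Cdk1* -1.57, *Il2rg* 0.71, *Lcp2* 0.26, *Mki67* -0.25, *Nkg7* 0.38, *Nop2* -0.54, *Pim1* 0.12, *Pld4* 0.19, *Ube2c* -0.71. In cells with no UMI of the mitosis list they were *Ifngr1* 0.046, *Ms4a4b* 0.24, *Nop2* -1.08, *Zap70* 0.24. Without cells with *Dtx1* alone they were *Ms4a4b* 0.19. Without *Tyrobp*-rich cells they were *Hbb-bt* -3.37. The cause was not tested. No paired analysis was possible because each genotype had 1 library. Depth limits what the genes under 50 UMIs can show.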
